A study of Mus musculus with 10 samples.

Results

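Macrophages of the mouse fetal pancreas were compared between E12.5 and E17.5 (E, embryonic day). They were picked out of single-cell RNA sequencing libraries as barcodes with 200 or more genes, at least 5 unique molecular identifiers (UMIs, each standing for 1 captured RNA molecule) of C1qa, C1qb and C1qc together, at least 1 UMI of Tyrobp, none of Epcam, and under 30% of UMIs from haemoglobin genes. This rule kept 1345 of the 50085 barcodes with 200 or more genes in the Swiss Webster libraries. E12.5 gave 572 of these cells (19 in the version 1 library and 553 in the version 2 library), E14.5 gave 226 (48, 24 and 154 in 3 libraries) and E17.5 gave 547 (12 in the version 1 library and 535 in the version 2 library). The measured levels of C1q, Tyrobp, Epcam and haemoglobin genes chose the cells, so they were selected on these genes, which were left out of every test. Few cells lay at the edge of the rule. The C1q sum was exactly 5 UMIs in 10 of the chosen cells, and 7 further barcodes that met every other criterion held 4 UMIs.

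All embryos compared here were Swiss Webster, and no group carried a treatment or an engineered allele. The version 1 kit received all live cells of E14.5 pancreata (batch 1) and, on another day, of pancreata of all 3 stages (batch 2). The version 2 kit received live cells negative for CD140a, a surface receptor of mesenchymal cells, from each of the 3 stages on a separate day, and the E17.5 suspension was run in 2 wells, which were summed and counted as 1 library. Each library was 1 pool of pancreata, and the spread between libraries joins kit, sort, day and litter. TrypLE digestion took 10, 15 and 30 min in order of stage, so stage and digestion time cannot be told apart. A further E14.5 library from Fev-Cre;ROSA26mTmG embryos held 68 such cells and entered 1 alternative fit.

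Macrophages are phagocytes of the innate immune system. The first ones to enter fetal organs derive from the yolk sac, and later ones come from monocytes of the fetal liver. They depend on the receptor Csf1r, take up dying cells and foreign particles through scavenger receptors such as Mrc1, break them down with lysosomal enzymes, and can load peptides onto major histocompatibility complex (MHC) class II proteins for presentation to T cells.

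The label was checked against markers that the rule had not used. Of 20 macrophage identity genes, 18 passed the filter on low counts, and at most 2 were at 0 in any library. Their summed level was 11300 to 28941 counts per 1000000 UMIs in macrophages and 37.7 to 74.4 in mesenchymal cells. Csf1r stood at 712 counts per 1000000 macrophage UMIs (CPM, haemoglobin UMIs left out) at E12.5 version 1, 509 at E12.5 version 2, 760, 519 and 307 in the E14.5 libraries, 665 at E17.5 version 1 and 626 at E17.5 version 2. In other barcodes of the E17.5 libraries Csf1r reached 7.37 and 11.7 CPM.

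Depth and composition differed between libraries. Macrophage sums ran from 47672 UMIs (E17.5 version 1) to 4496346 UMIs (E12.5 version 2) in the single libraries, with 3011108 and 2828925 UMIs in the E17.5 version 2 wells, and median UMIs per macrophage ran from 3400 to 10363. Only 2 macrophage barcodes were shared between libraries (E12.5 version 2 and the second E17.5 well). The 3 version 1 batch 2 libraries stood apart. After each cell was thinned to 2000 UMIs, the mannose receptor Mrc1 was found in 3 of 19, 5 of 24 and 0 of 10 of their cells, in order of stage, and in 57.8 to 77.3% of the cells of the other 4 libraries. In the 12 cells of E17.5 version 1, the summed neutrophil markers came to 1115 CPM (8.24 to 78.9 elsewhere), with 5 of 10 markers at 0 (Ngp, Camp, Ltf, Retnlg and Elane). Mast cell and basophil markers came to 1629 CPM there (0 to 12.46 elsewhere), with Mcpt8 at 48 UMIs, Hdc at 16, and Cma1, Tpsb2, Mcpt4, Kit and Prss34 at 0. Their part in the results was not tested.

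RNA of other cells was also counted in macrophages. Acinar markers summed to 212 CPM in macrophages at E12.5 version 2 and 4498 at E17.5 version 2, and endocrine markers to 134 and 1139, whereas E17.5 version 1 had 42.9 of each. The E14.5 libraries had 981 (batch 1), 46.6 (batch 2) and 628 CPM (version 2) of acinar markers. The median log2 difference of the 6 acinar markers tested was 2.83, with none called by the kit block and 3 by the batch block. Insulin (Ins2) was present in 70.3% of thinned macrophages and in 69.6% of thinned mesenchymal cells at E17.5 version 2. Whether these UMIs came as free RNA of other cells was not tested. Ins2 was the gene with the largest fitted rise (log2 difference 9.53 ± 0.95, adjusted p = 0.00118) and is not read further, since it was absent from E17.5 version 1.

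The share of macrophages in the version 2 libraries depended on the marker at E17.5. With the C1q rule they were 4.195% (exact 95% binomial interval 3.86 to 4.55) of barcodes at E12.5 and 4.19% (3.85 to 4.55) at E17.5, with 1.69% (1.44 to 1.98) at E14.5. With Csf1r in place of C1q the ends were 4.18% (3.84 to 4.54) and 5.72% (5.33 to 6.14), and with haemoglobin-rich barcodes left out of the total 4.45% (4.09 to 4.83) and 5.10% (4.69 to 5.54). In version 1 they were 0.411% (0.248 to 0.642) of E12.5 barcodes. The E14.5 batches gave 1.35% (0.995 to 1.78) and 0.527% (0.338 to 0.782), and E17.5 gave 0.520% (0.269 to 0.906). With Csf1r in place of C1q the version 1 ends were 0.476% (0.299 to 0.720) and 1.86% (1.35 to 2.50). These intervals and those below cover counting error only. The shares are not comparable across kits, because the version 2 sort removed CD140a+ cells, and haemoglobin made up 60.9% of the UMIs of E17.5 version 1.

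Across 3140 genes that passed the filter, 40 were higher at E17.5 than at E12.5 (1.27% of those tested) and 5 were lower (0.159%), by edgeR's quasi-likelihood test with kit as a block, a Benjamini-Hochberg adjusted p below 0.05 and a fold of at least 2. The genes that rose served antigen presentation (H2-Aa, H2-DMa, Cd74), a set of genes known from monocytes (S100a4, S100a6, Fn1), lysozyme and galectin-3 (Lyz2, Lgals3) and inflammatory signalling (Osm, Tnf, Cxcl2, Nfkbia), among others. Those that fell were Hmga2, Sfrp1, Mdk, Ptn and Cdkn1c. Within each kit, 43 of the 45 moved in the direction of the fit; the exceptions were Ins2 and the predicted gene Gm10320. Both E17.5 libraries lay above both E12.5 libraries for 36 of the 40 (10.9% of all genes tested did) and below them for 5 of 5 (22% of all genes). Choosing genes by their difference between the ends favours these counts and those within each kit, so they are descriptions. The same holds below where the E17.5 libraries of a called gene are said to lie above the others.

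With the batch as block in place of the kit (batch 1, batch 2 and version 2), 94 genes were higher (2.99%) and 27 lower (0.86%). Batch 1 is 1 library (E14.5), which its own block term takes up, so this fit compares the stages without it. The version 2 block joins stages run on separate days. No gene was called without a block (129 higher and 43 lower at an unadjusted p below 0.05), nor without E12.5 version 2 (178 and 46), the library that held 553 of the 572 E12.5 cells. Each other library also moved a count when left out, to 60 higher and 29 lower without E12.5 version 1, 178 and 75 without E14.5 batch 1, 66 and 18 without E14.5 batch 2, 14 and 4 without E14.5 version 2, 87 and 29 without E17.5 version 1, and 32 and 0 without E17.5 version 2 (198 lower at an unadjusted p below 0.05). Genes that were low at 1 end, such as H2-Aa, S100a4, Fn1, Plbd1, Hmga2 and Sfrp1, passed the filter through the libraries of the other end, so the counts, signs and medians given below over the tested members of a list are descriptions. These 6 genes were also called with no filter on low counts. Over all genes tested, 48.3% had a positive difference. Many of the rises were shared with mesenchymal cells of the same libraries. Of the 40 genes called higher in macrophages 31 were tested there, and 23 of these were called higher (9.85% of 13027 genes were, and 3.32% lower) and none lower. Because UMIs were summed over cells, fewer expressing cells and less RNA per cell cannot be told apart in these levels.

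**Figure D1:**
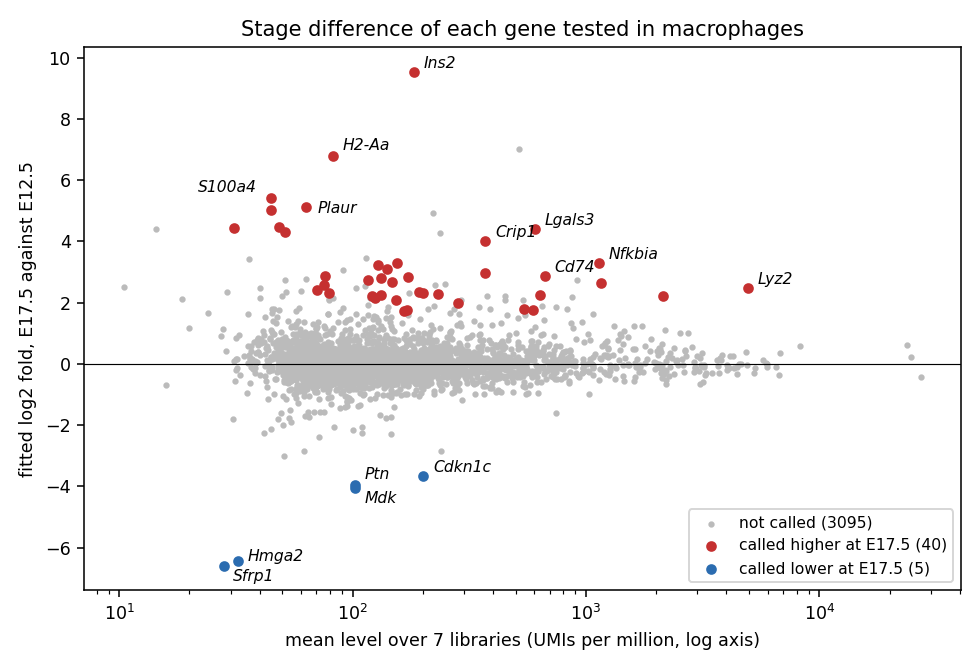
Log2 difference in macrophages between E17.5 and E12.5 (vertical axis, fitted with kit as block) against mean level (horizontal axis, log scale) for the 3140 genes tested, with called genes coloured. The 40 genes called higher lie at log2 differences from 1.72 to 9.53, and the 5 called lower lie at log2 differences from -3.67 to -6.59.

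Genes of MHC class II presentation were among those that rose. Of 10 members of the class II list, 3 passed the filter, and these 3 were called higher (1.27% of all genes tested were), also under the batch block (2.99%). Their median log2 difference was 3.22, against -0.02 over all genes tested. This count and median are descriptions, since H2-Aa passed the filter through the E17.5 libraries. H2-Aa, the alpha chain of I-A (chromosome 17, 34282744 to 34287823, minus strand, GRCm38), had 0, 2.23, 0, 13.3, 19.01, 64.3 and 246 CPM in the libraries E12.5 version 1 and 2, E14.5 version 1 batch 1 and batch 2, E14.5 version 2, and E17.5 version 1 and 2, the order used from here on. Both E17.5 libraries were above every earlier one, although E17.5 version 1 rested on 3 UMIs. The log2 difference was 6.79 ± 0.69 (SE, adjusted p = 0.00118 by edgeR). Within version 2 the ratio was 111 (exact 95% interval 60.0 to 231), with 156 and 343 CPM in the 2 E17.5 wells. The intervals of this and later version 2 ratios treat each UMI as independent and leave out the spread between cells.

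Cd74, the invariant chain that guides class II proteins to the endosome, had 269, 119, 383, 526, 467, 1372 and 1023 CPM. Its E17.5 levels did not overlap with the E12.5 or E14.5 levels (log2 difference 2.86 ± 0.41, adjusted p = 0.00825). In mesenchymal cells, at levels up to 19.7 CPM, Cd74 differed by 4.40 ± 0.50, and the difference between the classes of -1.62 was not called (adjusted p = 0.102). H2-DMa, a chain of the peptide exchanger H2-DM, stood at 28.9, 14.0, 47.8, 346, 63.7, 343 and 116 CPM (3.22 ± 0.69, adjusted p = 0.0439), and here the E14.5 batch 2 library was as high as E17.5 version 1. The beta chains H2-Ab1 and H2-Eb1 did not pass the filter. Within version 2 they went from 0.891 to 215 and from 4.01 to 144 CPM, ratios of 241 (94.1 to 888) and 35.8 (22.5 to 60.8), with 1 and 0 UMIs at E17.5 version 1. Other barcodes of the E17.5 libraries held H2-Aa at 272 CPM in version 1, above the macrophages, and at 148 in version 2, below them.

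The promoters of class II genes share a Y box, an inverted CCAAT box read by the factor NF-Y. The letters TGATTGG were searched on both strands of the 250 bases before each RefSeq gene start, and 2375 of 32851 such windows (7.23%) held them. Of 5 class II genes looked up, 4 had an entry, and the windows of the 3 with a match are shown because the levels of these genes differed between the version 2 ends. Capitals mark the match, which began 50, 61 and 63 bases before the RefSeq start. Coordinates are GRCm38.p6, chr17:34287824-34288073 (minus strand), chr17:34305617-34305866 and chr17:34152941-34153190 (plus strand). The 2 windows of H2-DMa, which end at 34122831 and 34125517, held no match. The annotated H2-DMa gene spans 34119541 to 34139101, and any start other than these 2 was not searched. The annotated H2-DMb1 gene starts at 34153072, inside its window, so its match lies within the annotated gene.
H2-Aa: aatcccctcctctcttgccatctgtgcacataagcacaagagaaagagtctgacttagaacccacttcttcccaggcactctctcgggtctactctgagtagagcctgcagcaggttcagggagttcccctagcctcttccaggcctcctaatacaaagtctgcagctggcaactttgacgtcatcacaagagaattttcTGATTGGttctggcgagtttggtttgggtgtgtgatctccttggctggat
H2-Eb1: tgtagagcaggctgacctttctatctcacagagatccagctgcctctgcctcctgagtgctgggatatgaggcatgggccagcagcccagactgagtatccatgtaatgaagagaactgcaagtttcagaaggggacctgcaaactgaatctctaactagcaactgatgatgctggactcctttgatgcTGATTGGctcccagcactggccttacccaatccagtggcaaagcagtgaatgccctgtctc
H2-DMb1: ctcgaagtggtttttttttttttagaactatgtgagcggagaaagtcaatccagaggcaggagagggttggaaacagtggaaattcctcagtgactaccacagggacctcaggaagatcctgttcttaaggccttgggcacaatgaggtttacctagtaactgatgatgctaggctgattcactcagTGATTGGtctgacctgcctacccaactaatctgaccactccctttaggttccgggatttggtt
H2-DMb1, the partner chain of H2-DMa, did not pass the filter and stood at 4.90 and 34.6 CPM within version 2 (ratio 7.06, 4.54 to 11.5).

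Class II RNA sat in few cells. At E12.5 version 2, 550 of 553 macrophages had no UMI of H2-Aa, H2-Ab1 or H2-Eb1, and 1 cell had 20 or more. At E14.5 version 2, 149 of 154 had none and 1 had 20 or more. At E17.5 version 2, 457 of 535 (85.4%) still had none, while 27 cells (5.05%; 11 in one well and 16 in the other) had 20 or more and together held 3356 of the 3496 class II UMIs (96.0%). No cell of E17.5 version 1 reached 20 UMIs. After thinning, a UMI of these 3 genes was found in 7.66% of macrophages and 5.09% of mesenchymal cells at E17.5 version 2, against 0.181% and 0.759% at E12.5 version 2, so single UMIs were not read as expression. With Cd74 counted as well, the share of thinned macrophages with a class II UMI was 31.6%, 15.0%, 27.3%, 29.2%, 22.7%, 70.0% (7 of 10 cells) and 24.1% over the 7 libraries.

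The 27 cells differed from the 457 cells at 0 in other genes too, given as a description because class II levels chose them. Their median depth was alike (10363 against 9976 UMIs). Cd74 reached 15012 against 152 CPM, the monocyte chemokine receptor Ccr2 674 against 162, S100a4 394 against 90.7, Plbd1 360 against 49.6, and Lyz2 7886 against 4031. The scavenger receptor Mrc1 stood at 157 against 1043 CPM, the hyaluronan receptor Lyve1 at 13.3 against 1488, the platelet factor Pf4 at 304 against 4446, and Csf1r at 314 against 657. Of dendritic cell markers, Cd209a (43.4 against 0.61) and Flt3 (20.02 against 0.81) were present in the 27 cells, and Xcr1, Clec9a and Zbtb46 were at 0.

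**Figure D2:**
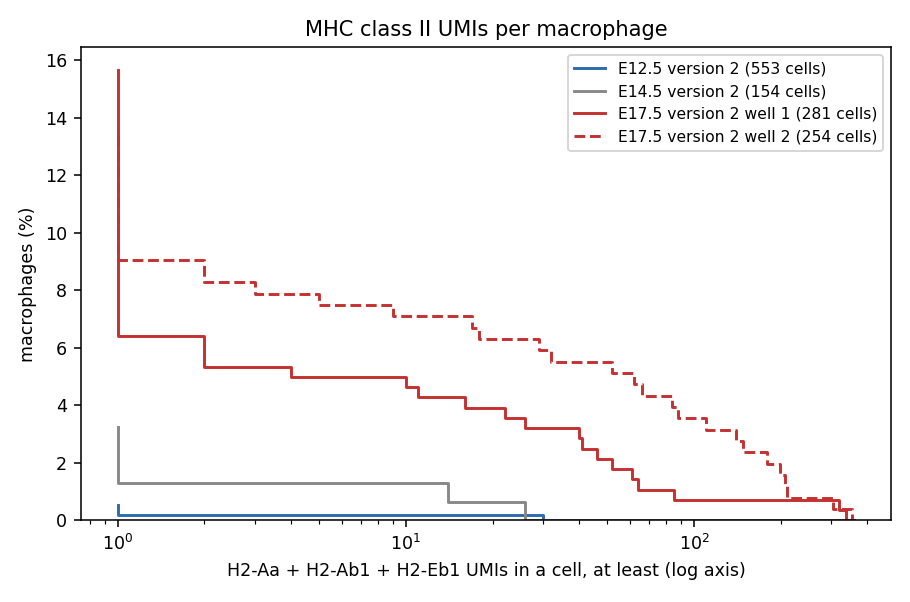
UMIs of H2-Aa, H2-Ab1 and H2-Eb1 together in each macrophage of the version 2 libraries (both E17.5 wells drawn), as the share of cells (vertical axis, percent) with at least the number of UMIs on the horizontal axis. In the E17.5 wells together, 5.05% of cells lie at or beyond 20 UMIs and the highest cell has 353, while E12.5 version 2 has 1 such cell.

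Genes known from monocytes and from activated macrophages made up the next group. Of 20 monocyte genes 12 passed the filter, of which 3 were called higher (S100a4, S100a6, Fn1) and none lower (median log2 difference 2.83 over the 12), where 1.27% of all genes tested were higher. With the batch as block 8 were higher (2.99% of all genes), Ccr2, Plac8, Ms4a4c, Hp and Napsa in addition. S100a4, a calcium-binding protein of motile cells, had 0, 2.67, 11.96, 0, 6.71, 64.3 and 112 CPM (log2 difference 5.42 ± 0.77, adjusted p = 0.00804). Its 2 E17.5 libraries were the highest of the 7, but E17.5 version 1 held 3 UMIs. S100a6 had 57.7, 39.6, 11.96, 13.3, 82.7, 472 and 317 CPM (3.28 ± 0.64, adjusted p = 0.0274; once free RNA was subtracted, 3.50 with adjusted p = 0.0823). Fibronectin (Fn1) had 0, 3.56, 0, 6.66, 4.47, 107 and 64.7 (4.44 ± 0.82, adjusted p = 0.0235). For both genes the E17.5 libraries lay above the other 5. In mesenchymal cells of the same libraries the summed level of the monocyte list was 386 and 779 CPM at E12.5 and 1912 and 3988 at E17.5. S100a6 differed there by 3.10 ± 0.43, which leaves a difference to macrophages of 0.36 (adjusted p = 0.921), and the other barcodes of E17.5 version 2 held it at 767 CPM. Fn1 differed there by 2.40 ± 0.49, with a difference to macrophages of 1.84 (adjusted p = 0.131), and stood at 147 CPM in mesenchymal cells of E17.5 version 2. S100a4 differed there by 2.29 ± 0.51, less than in macrophages (difference 2.61, adjusted p = 0.0361).

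Ccr2, which draws monocytes out of the marrow, was not called. It stood at 192, 19.4, 65.8, 532, 189, 536 and 198 CPM (log2 difference 2.601 ± 0.84, adjusted p = 0.236), and E12.5 version 1 nearly equalled E17.5 version 2. Within version 2, Ccr2 was found in 3.80% of thinned macrophages at the first stage, 17.53% at the second and 27.9% at the last, with 0, 0 and 0.0909% in mesenchymal cells of these libraries.

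Lysozyme (Lyz2), which cleaves bacterial walls, was among the most abundant of the genes that rose. It had 1944, 997, 2913, 6084, 2630, 11748 and 4349 CPM (2.48 ± 0.43, adjusted p = 0.0170). E17.5 version 1 stood highest, and E17.5 version 2 lay below the E14.5 batch 2 library. Galectin-3 (Lgals3), a lectin of phagocytes, had 28.9, 47.9, 269, 692, 189, 2508 and 490 CPM (4.41 ± 0.67, adjusted p = 0.0108). Within batch 2 and within version 2 its level went up from each stage to the next. At E17.5 version 2, thinned mesenchymal cells held Lgals3 as often as macrophages (39.5% and 40.7%), so its version 2 share does not set macrophages apart. At E17.5 version 1 it was in 1.89% of mesenchymal cells and in 10 of 10 macrophages. In E17.5 version 2 mesenchymal cells held 418 CPM of Lgals3, and all other barcodes together 177 CPM. With free RNA subtracted, the log2 difference of Lgals3 in macrophages was 4.38 (adjusted p = 0.0115 by edgeR). In mesenchymal cells Lgals3 rose by 5.67 ± 0.50, and the difference between the classes was -0.20 ± 1.27 (adjusted p = 1.0).

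Plbd1, a lysosomal phospholipase-like protein of myeloid cells, had 19.2, 2.00, 0, 33.3, 19.01, 257 and 70.2 CPM (5.02 ± 0.97, adjusted p = 0.0268). Wfdc17, a small secreted whey acidic protein domain protein, had 9.62, 44.8, 35.9, 6.66, 263, 42.9 and 276 (2.68 ± 0.50, adjusted p = 0.0237). For Plbd1 both E17.5 libraries were above the others, whereas for Wfdc17 E17.5 version 1 lay just below E12.5 version 2.

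Some inflammatory signals rose. Of 15 chemokine and cytokine genes tested, 3 were higher (Cxcl2, Tnf, Osm; 1.27% of all genes) and none lower (median 1.55), and the batch block (2.99% of all genes) added Ccl6, Ccl9 and Cxcl1. Oncostatin M (Osm), a cytokine of the interleukin-6 family, had 0, 4.45, 35.9, 26.6, 26.8, 279 and 64.9 CPM (4.48 ± 0.72, adjusted p = 0.0131). The neutrophil attractant Cxcl2 had 231, 243, 981, 2117, 644, 1844 and 1206 (2.65 ± 0.50, adjusted p = 0.0237), and Tnf had 48.1, 22.3, 120, 260, 54.8, 407 and 74.6 (2.21 ± 0.46, adjusted p = 0.0404). For Osm both E17.5 libraries were above all others, whereas for Cxcl2 the E14.5 batch 2 library was the highest. Il1b was not called (28.9, 137, 323, 819, 99.5, 1586 and 215 CPM, adjusted p = 0.533), and the monocyte attractant Ccl2 was highest in the 3 E14.5 libraries (173, 511, 1812, 1058, 1089, 129 and 471).

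Nfkbia, the inhibitor that NF-kB itself induces, had 154, 169, 981, 1398, 759, 3109 and 793 CPM (3.29 ± 0.52, adjusted p = 0.0131), and Ccrl2, a chemerin-binding receptor, had 57.7, 49.6, 317, 639, 130, 1286 and 207 (2.97 ± 0.56, adjusted p = 0.0237). For both genes the E12.5 libraries were the 2 lowest of the 7. The urokinase receptor Plaur had 0, 2.45, 35.9, 106, 39.1, 450 and 47.4 CPM (5.11 ± 0.84, adjusted p = 0.0138), with E17.5 version 2 below E14.5 batch 2. Of 27 immediate early and heat shock genes, which dissociation of tissue is known to induce, 2 were higher (Nfkbia and Junb, median 1.102), against 1.27% of all genes tested. The batch block (2.99% of all genes) added Atf3 and Ppp1r15a. A positive difference was seen in 24 of the 27, against 48.3% of all genes. Their summed level was 14302 to 16618 CPM at E12.5. It was 37888, 37655 and 20080 in the 3 libraries of E14.5, 38739 at E17.5 version 1 and 19497 at E17.5 version 2, so within each kit E14.5 already stood at the E17.5 level. In mesenchymal cells of the same libraries it was 4424 and 5076 at E12.5 and 16444 and 9284 at E17.5. Its part in the results was not tested.

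The lineage factors Spi1 and Irf8 were not called. Spi1 (PU.1), which specifies myeloid cells, had a log2 difference of -0.24 ± 0.35, and Irf8, a factor of monocytes and dendritic cells, one of -0.10 ± 0.35.

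Surface receptors and effectors among the genes that rose included Lilrb4a, an inhibitory receptor of the leukocyte immunoglobulin-like family, with 28.9, 36.3, 95.7, 86.5, 90.6, 450 and 168 CPM (2.79 ± 0.45, adjusted p = 0.0131). The lactate exporter Slc16a3, 1 of 15 glycolysis genes tested and the one called (the batch block added Slc2a1), had 19.2, 20.5, 29.9, 46.6, 36.9, 129 and 145 (2.87 ± 0.45, adjusted p = 0.0117). Of all genes tested 1.27% were called higher by the kit block and 2.99% by the batch block. The matrix glycoprotein Emilin2 had 48.1, 16.5, 53.8, 73.2, 43.6, 193 and 102.4 (2.57 ± 0.45, adjusted p = 0.0170). In all 3 the E17.5 libraries were above every other library. The endotoxin co-receptor Cd14 had 356, 150, 526, 546, 312, 1308 and 423 CPM (1.79 ± 0.36, adjusted p = 0.0355), with E17.5 version 2 below both version 1 libraries of E14.5. Rises were also found for the inhibitory Fc receptor Fcgr2b (1.77 ± 0.38), the scavenger receptor Msr1 (1.72 ± 0.36), the MHC class I heavy chain H2-D1 (1.75 ± 0.35), whose reads may be shared with near-identical class I genes, and the interferon-induced Ifi27l2a (2.33 ± 0.42), with adjusted p of 0.0437, 0.0391, 0.0319 and 0.0187. Once free RNA was subtracted, Fcgr2b and Tgfbi no longer passed (adjusted p = 0.0507 for each), with log2 differences of 1.75 and 2.15. The remaining genes called higher, listed after their values were seen, included Crip1 (4.03 ± 0.52), Anxa1 (3.09 ± 0.61), Lmna (2.73 ± 0.41), Ahnak (2.33 ± 0.44), Anxa2 (2.27 ± 0.37), Tgfbi (2.09 ± 0.43) and S100a10 (1.97 ± 0.40).

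Of the 40 genes, 27 stood at least 2 times above the other barcodes of the same library in both E17.5 libraries, and 29 were higher in E17.5 version 1 than in E17.5 version 2. The shares of all genes tested that did so were not worked out, so these counts are descriptions. For most of the 40 genes the 12 cells of E17.5 version 1 set the top of the range.

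**Figure D3:**
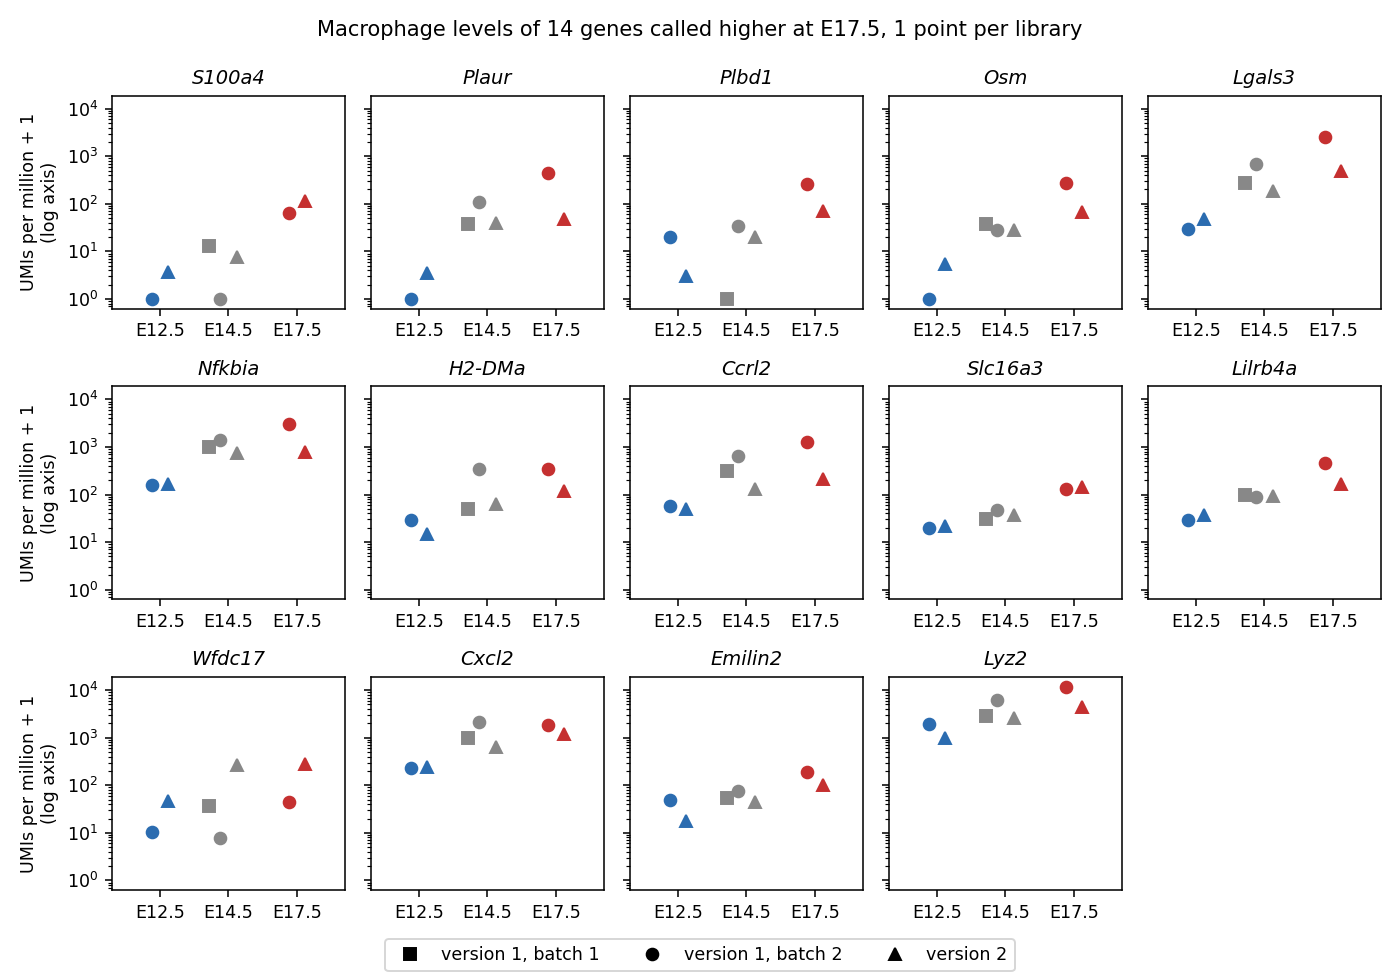
Levels of 14 genes with the largest log2 differences among those that rose in both kits and stood above other cells (CPM plus 1, log scale) in each of the 7 libraries, ordered by stage, with kit shown by symbol. For S100a4, Plbd1, Osm, Lilrb4a, Slc16a3 and Emilin2 both E17.5 points lie above all others, while for Cxcl2 the E14.5 batch 2 point at 2117 is the highest. Choosing genes by their E17.5 rise favours such points, and the share of all genes tested that show them was not worked out.

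Genes of tissue-resident macrophages depended on the block. Of 19 on the list 13 were tested and none was called by edgeR with kit as block (median 0.35, with 4 higher and none lower at an unadjusted p below 0.05, and 1 called by DESeq2). The batch block called Folr2, F13a1 and Fcna higher (2.99% of all genes were). Mrc1 had 135, 719, 1393, 233, 602, 64.3 and 958 CPM (0.33 ± 0.88, adjusted p = 0.999), and Lyve1 had 106, 604, 748, 107, 1015, 64.3 and 1331 (0.90 ± 0.79, adjusted p = 0.999). The 3 batch 2 libraries were the lowest for both, whatever their stage. The phosphatidylserine receptor Timd4 had 67.4, 60.3, 77.7, 6.66, 50.3, 0 and 86.9 CPM (0.23 ± 0.69, adjusted p = 0.999).

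In another 3 resident genes the version 2 libraries differed beyond counting error. The haemoglobin scavenger Cd163 had 0, 3.56, 17.9, 0, 8.94, 0 and 92.6 CPM, with a version 2 ratio of 26.0 (15.9 to 45.8) and 0.542%, 2.597% and 14.6% of thinned cells at the successive stages. No thinned mesenchymal cell held Cd163 (0 of 922, 0 of 284 and 0 of 1100 in version 2, which allow shares of up to 0.325%, 1.06% and 0.273%). The carbonyl reductase Cbr2 had 0, 0.891, 5.98, 0, 8.94, 0 and 85.6 (ratio 96.2, 37.3 to 354), and the lectin Cd209f 0, 0.668, 11.96, 0, 59.3, 0 and 94.0 (ratio 141, 47.9 to 684, on 3 UMIs at E12.5). These 3 genes did not pass the filter, so the main fit did not test them. In version 1 batch 2 they were at 0 at every stage, in sums of 47672 to 150388 UMIs, where 3 UMIs are the limit that a count of 0 allows. The haem-degrading enzyme Hmox1 had 173, 377, 927, 453, 614, 772 and 1121 CPM (1.86 ± 0.47, adjusted p = 0.0984), and was called higher with the batch as block.

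**Figure D4:**
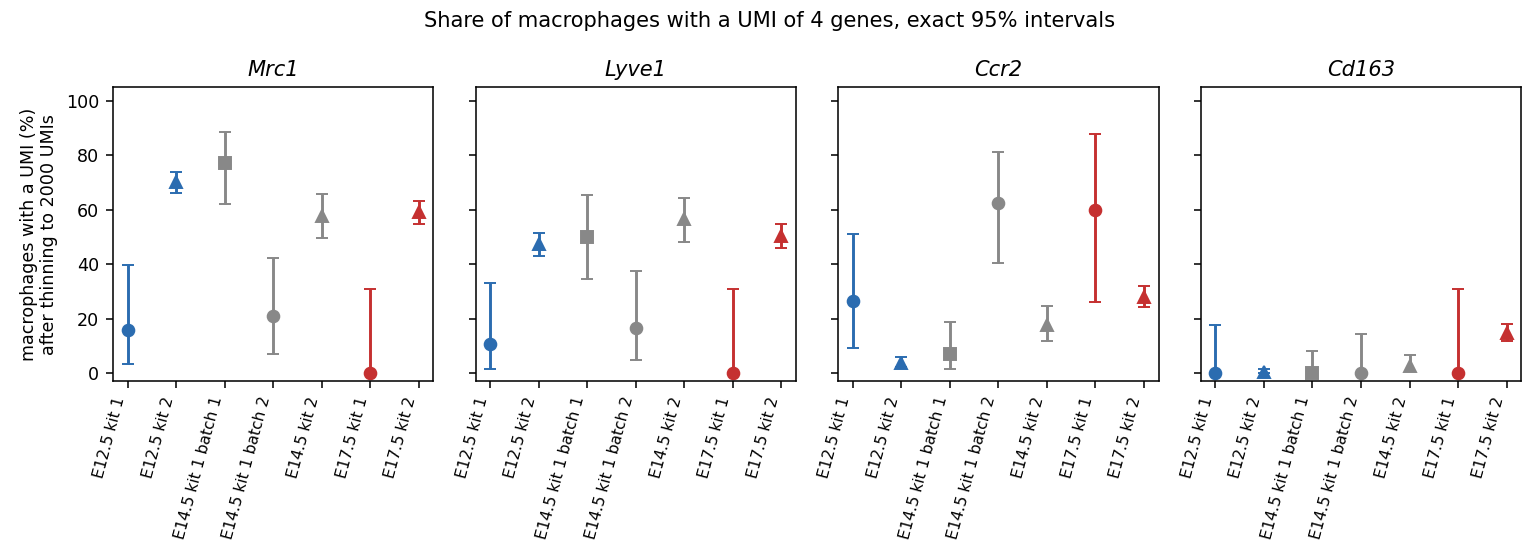
Share of macrophages (percent, exact 95% binomial intervals) with a UMI of Mrc1, Lyve1, Ccr2 or Cd163 after thinning each cell to 2000 UMIs, by library. Mrc1 stays between 57.8 and 70.2% in the 3 version 2 libraries while Cd163 and Ccr2 go up to 14.6% and 27.9%, and the version 1 batch 2 libraries have few Mrc1-positive cells.

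The 5 genes that fell were named after their values were seen, since none was more abundant in macrophages than in other cells. Hmga2, an architectural chromatin protein of fetal and stem cells, had 86.6, 65.9, 5.98, 6.66, 6.71, 0 and 0.692 CPM (-6.43 ± 0.88, adjusted p = 0.00722). In mesenchymal cells Hmga2 went from 673 and 358 to 2.50 and 3.78 CPM (-6.90 ± 0.42), and the difference of the stage changes, 0.06 ± 2.41 (adjusted p = 1.0), was too uncertain to tell the classes apart. The Wnt-binding protein Sfrp1 had 67.4, 62.6, 0, 6.66, 0, 0 and 0.519 (-6.59 ± 1.102, adjusted p = 0.0142). Both were highest in the 2 E12.5 libraries and rested on 4 and 3 UMIs at E17.5 version 2, with version 2 ratios of 0.0105 (0.00284 to 0.0272) and 0.0083 (0.0017 to 0.0245). The heparin-binding growth factors midkine (Mdk, 96.2, 187, 71.8, 86.5, 88.3, 0 and 10.0) and pleiotrophin (Ptn, 86.6, 171, 101.7, 153, 57.0, 0 and 8.65) fell by 4.04 ± 0.51 and by 3.95 ± 0.65 on the log2 scale, with adjusted p of 0.00465 and 0.0138. The imprinted cell cycle inhibitor Cdkn1c had 366, 326, 179, 146, 119, 64.3 and 19.6 CPM (-3.67 ± 0.45, adjusted p = 0.00465).

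The other barcodes of the E12.5 libraries held more of all 5 genes, 5752 and 1256 CPM for Cdkn1c, 2584 and 1473 for Mdk, 2451 and 737 for Ptn, 1091 and 223 for Sfrp1, and 628 and 433 for Hmga2. When the estimated free RNA was subtracted, Cdkn1c (-6.24, adjusted p = 0.0170 by edgeR) and Ptn (-10.40, adjusted p = 0.0102) were still called, while Hmga2, Mdk and Sfrp1 no longer passed the filter. For Ptn at E17.5 version 2, the amount taken off (5.05% of 219 CPM in other barcodes) exceeded its 8.65 CPM, and the level was set to 0. E17.5 version 1 was already at 0, so the -10.40 is a difference against 0 counts that the subtraction helped to make. Of 9 genes of the heterochronic and fetal growth list, 2 were lower (Hmga2 and Cdkn1c), against 0.159% of all genes tested, and none higher. All 9 were negative (median -1.77), where 48.3% of all genes were positive. The batch block (0.86% of all genes lower) added H19, Peg3 and Meg3. The list summed to 1424 and 1979 CPM in macrophages at E12.5 and to 236 and 469 at E17.5. In mesenchymal cells it summed to 21696 and 14242 at E12.5 and to 36698 and 15991 at E17.5.

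The cell cycle lists gave no calls by edgeR or DESeq2, and no gene at an unadjusted p below 0.05. All 15 S phase genes had a negative difference (median -0.31), as had 11 of 14 G2/M genes (median -0.41). Over all genes tested 48.3% had a positive one. The G2/M list summed to 1882 CPM at E12.5 version 2 and 1892 at E17.5 version 2, so its total did not fall there. In version 1 it summed to 2733 and 536 CPM at these stages. The share of thinned macrophages with 2 or more G2/M UMIs was 41.2% (37.1 to 45.5) at E12.5 version 2, 35.7% at E14.5 version 2 and 26.5% (22.9 to 30.5) at E17.5 version 2. The version 1 values were 47.4%, 54.5%, 29.2% and 20%, the last on 10 cells. Mesenchymal cells of the same libraries went from 41.6% and 38.4% at E12.5 to 14.9% and 24.9% at E17.5.

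Several other functions gave few calls or none. No lysosome gene was called of 23 (median 0.49, 22 positive against 48.3% of all genes). Of these, 2 were higher at an unadjusted p below 0.05 and 1 was called by DESeq2. None of 10 iron and haem genes was called (median 0.44, with 4 and 1 by these measures), and none of 5 complement genes (median 1.19, with 3 and 0). With the batch as block Hmox1 and Trf of the iron and haem genes and C5ar1 and Itgb2 of the complement genes were higher, and no lysosome gene was. The 7 microglia-like genes had a median of -0.25, with 1 lower at an unadjusted p below 0.05 and none called by DESeq2. Apoe, the most abundant of the lipid genes, had 18235, 17519, 22392, 17593, 17914, 31664 and 20193 CPM (0.61 ± 0.35, adjusted p = 0.847). One gene each was higher among 9 Fc receptors, 9 interferon response genes, 7 MHC class I genes and 9 genes of dead cell uptake. Over all genes tested 1.27% were called higher, and 2.99% with the batch as block. The batch block added Ifitm3 and H2-K1, and with free RNA subtracted the Fc receptor Fcgr2b stood at 1.75 and was not called.

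**Figure D5:**
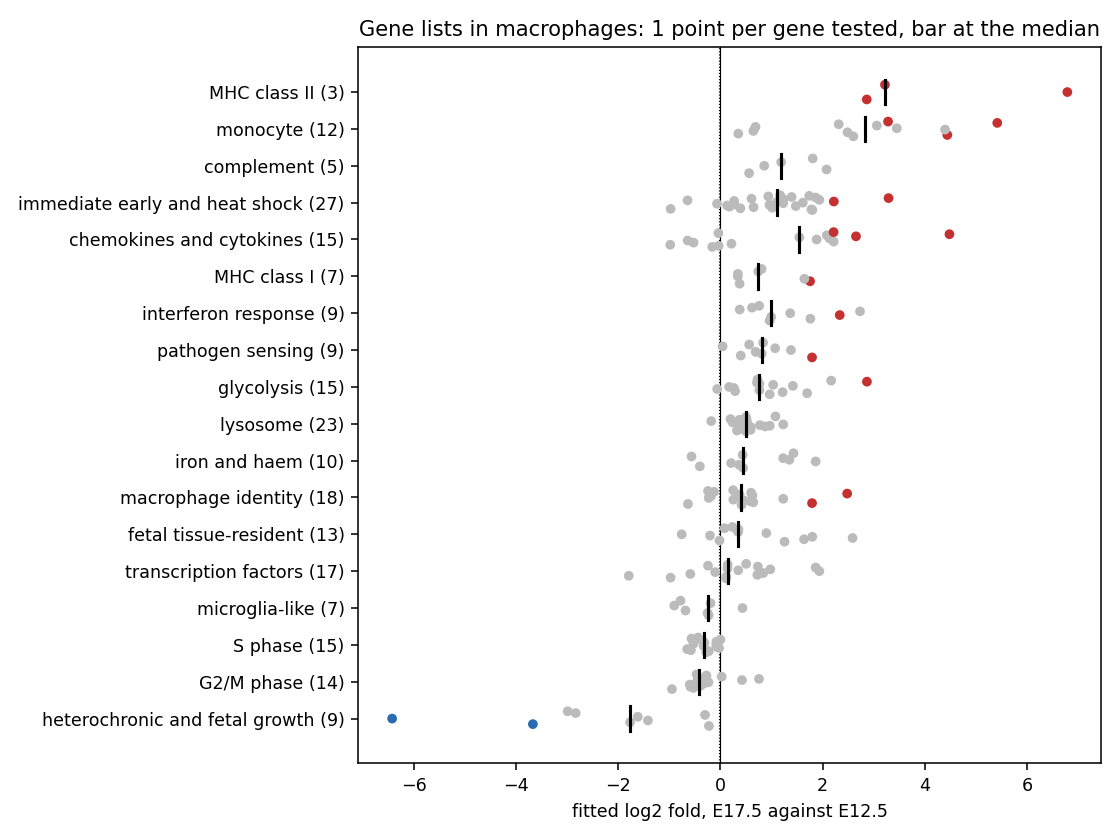
Log2 difference between E17.5 and E12.5 for every tested gene of each list (points) with the median of the list (line), genes called higher in red, called lower in blue and the rest in grey. The MHC class II and monocyte lists lie highest of the 18 lists drawn (medians 3.22 and 2.83; the acinar markers, not drawn, had 2.83), and the heterochronic and fetal growth list lies lowest (-1.77).

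The mean E14.5 level lay between the means of the ends for 39 of the 40 genes called higher and for 5 of 5 called lower, a description that choosing genes by their difference between the ends favours. Neither step alone gave more than 1 call by edgeR. From E12.5 to E14.5, 1 gene was higher (Ins2, 0.0318%) and none lower, with 125 and 58 at an unadjusted p below 0.05, and from E14.5 to E17.5 none was called, with 120 and 68. These contrasts share libraries with the main one. For S100a10 the first fitted step was -0.04 ± 0.38 on the log2 scale and the second 2.01 ± 0.37. For Nfkbia (2.33, then 0.96) and Fcgr2b (1.62, then 0.16) the first step was the larger one.

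The difference in stage response between macrophages and other cells of the same suspensions was tested directly with a class by stage term. In version 2 the mesenchymal cells were those left once CD140a+ cells had been sorted out. Whether their make-up shifted with stage was not tested. Against mesenchymal cells the change was more positive in macrophages for 64 of 12788 genes (0.5%) and less positive for 587 (4.59%), and against endothelial cells for 25 (0.404%) and 100 (1.62%) of 6181. Without E12.5 version 2 these counts were 12, 60, 2 and 8, without E17.5 version 2 they were 42, 129, 27 and 41, without E14.5 version 2 the first was 97, and without E17.5 version 1 the last was 161. DESeq2 gave 6, 66, 0 and 4. Tgfbi (difference of the differences 3.80), H2-DMa (3.58), H2-Aa (3.01), S100a4 (2.61) and Lyz2 (2.04) rose more in macrophages than in mesenchymal cells. Cdkn1c (-2.98) and Ptn (-2.93) fell in macrophages relative to mesenchymal cells. Junb (-1.87), Crip1 (-1.89), Emilin2 (-2.41), H2-D1 (-2.15) and Anxa1 (-4.20) rose more in mesenchymal cells than in macrophages. Of these, Tgfbi, Cdkn1c and Junb also passed by DESeq2.

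Further myeloid cells lay outside the C1q criterion, in the largest number at E17.5. Of cells with a UMI of Csf1r and of Tyrobp and meeting the other criteria, 15 of 551 (2.72%) at E12.5 version 2, 15 of 139 (10.8%) at E14.5 version 2 and 207 of 731 (28.3%) at E17.5 version 2 had fewer than 5 C1q UMIs. In version 1 it was 4 of 22 at E12.5, 8 of 51 and 9 of 33 in the E14.5 batches and 33 of 43 (76.7%) at E17.5. At E17.5 version 2 these 207 cells held Cd74 at 8100, H2-Aa at 2450, Lgals3 at 1804, Plac8 at 1424 and Ccr2 at 524 CPM, with Mrc1 at 12.49 and Lyve1 at 0.52. When Csf1r replaced C1q in the rule, 70 genes were higher and 6 lower at E17.5.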

How the data were processed

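The authors prepared 10x Chromium 3′ libraries and made the deposited UMI count matrices with Cell Ranger (versions 1.1 and 2.1 appear in the submitters' processing notes), with reads aligned to the prebuilt mm10 reference. Matrices of version 1 carry no mitochondrial genes. UMI counts of chosen cells were summed per library and tested with edgeR 4.0.16 (R 4.3.3; filterByExpr, TMM, quasi-likelihood test, kit as block, Benjamini-Hochberg over 3140 genes, 3 residual degrees of freedom) over 7 libraries of 3 stages. The study's own cell-level tests were not used, because cells of 1 pool are not replicates. limma 3.58.1 and DESeq2 1.42.0 served as alternatives. No doublet caller was run; Epcam-positive cells were dropped by the rule, and leaving out cells with 5 or more UMIs of other markers, listed as an alternative, kept 2 and 1 macrophages in the E17.5 version 2 wells and so left doublets unexamined. Free RNA was estimated per library and covered 0.349 to 5.75% of macrophage UMIs.

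Named genes were the 15 largest log2 differences per direction among called genes that moved the same way in each kit, averaged at least 50 CPM in the higher stage and stood 2 times above other cells of every library of that stage, together with members of the gene lists. 1 gene was left out of the gene lists, plots of named genes and text and is not reported here. The cells, gene lists and tests were chosen with earlier results of these data known. Deviations from stage means correlated within batch 2 (0.509 to 0.589) and within version 2 (0.527 to 0.693) and hardly between batch 1 and batch 2 (0.0694 and 0.189); with 2 libraries at each end these values mirror each other. The labels name the batches, so the batch block is printed beside the main result. On counts simulated for this comparison over 3140 genes, 4.92% of genes changed 2-fold, 46.6% of those changed 4-fold and 87.9% of those changed 8-fold were called, with 6 false calls. The simulated libraries shared a single mean profile and a fixed spread, with no kit or batch effect. These rates need not hold for the real libraries. Mesenchymal cells (Col1a1 and Col3a1 together at least 5 UMIs; 9583 cells) and endothelial cells (Cdh5, Kdr, Plvap and Egfl7 together at least 5; 676 cells) carried no C1q, Tyrobp, Ptprc or Epcam UMI. Promoter windows are from RefSeq, GRCm38.p6.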

Additional observations from a re-analysis of the deposited data

Results flagged for a closer look

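Results are given here where the change between E12.5 and E17.5 differed between macrophages and another class of the same libraries by the class by stage term of edgeR's quasi-likelihood test (Benjamini-Hochberg adjusted). Values are log2 differences, macrophages minus the other class, for genes called in macrophages.

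Against mesenchymal cells, genes with the more positive change in macrophages included Tgfbi 3.80, H2-DMa 3.58, H2-Aa 3.01, S100a4 2.61, Lyz2 2.04 and Nfkbia 1.54. The change was less positive for Anxa1 (-4.20), Sfrp1 (-3.72), Cdkn1c (-2.98), Ptn (-2.93), Mdk (-2.64), Emilin2 (-2.41), H2-D1 (-2.15), Crip1 (-1.89) and Junb (-1.87). Of these genes Tgfbi, Cdkn1c and Junb passed by DESeq2 as well.

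Against endothelial cells the change was more positive in macrophages for Plaur (4.16), Fn1 (2.96), Crip1 (2.13), Nfkbia (1.76) and Anxa2 (1.35). It was less positive for Ptn (-3.84), Hmga2 (-3.78), Sfrp1 (-3.64) and Cdkn1c (-2.55). None of these 9 genes passed by DESeq2 (lowest adjusted p = 0.141, Ptn). Against mesenchymal cells the difference was 0.06 ± 2.41 for Hmga2 and -0.07 ± 0.75 for Plaur (adjusted p = 1.0 for each), 1.84 for Fn1 (adjusted p = 0.131) and 0.68 for Anxa2 (adjusted p = 0.500). Crip1 stood on opposite sides of the 2 comparisons. Sfrp1 and Hmga2 rest on 3 and 4 UMIs at E17.5 version 2, and both classes hold free RNA whose part was not tested.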

How the results depend on the processing

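Against 40 genes higher and 5 lower at E17.5, each of the following settings moved a count by over 1.5 times. Csf1r in place of C1q gave 70 higher, DESeq2 63, limma voom 19, and no filter on low counts 158 higher and 55 lower of 16188. With batch as replicate block 94 were higher and 27 lower, and the 4 libraries of E12.5 and E17.5 alone gave 221 and 151 of 9076. With no replicate block the counts were 0 and 0 (129 and 43 at an unadjusted p below 0.05). Sums thinned to the smallest total gave 10 and 1 of 1055. The count of lower genes was 9 with a C1q sum of at least 10 UMIs, 14 with the Fev-Cre library, and 2 without cells that held other markers (29 higher of 2812). The last setting left 2 and 1 macrophages in the E17.5 version 2 wells, against 515 at E12.5 version 2, and is no test of doublets. Leaving out 1 library gave 0 to 178 higher and 0 to 75 lower. The fits without 1 library tested 2989 to 7898 genes, so their counts are not directly comparable. With counts within 1.5 times were a C1q sum of at least 3, 500 genes per cell, RLE factors, library size alone, embryonic day as a number, either E17.5 well alone, and free RNA subtracted (36 and 6, an alternative added with the version 2 ratios after seeing the data). Direction held for 43 of the 45 genes in every setting that tested them, which was not each of the 26 settings for all genes. The others reversed without version 2 libraries, Gm10320 at -5.62 without E12.5 version 2 and -1.46 without E17.5 version 2 (at most 4.49 without another library), and Ins2 at -0.63 without E17.5 version 2. The causes were not tested.

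For the class by stage term, DESeq2 gave 6 more positive and 66 less positive against mesenchymal cells (edgeR 64 and 587) and 0 and 4 against endothelial cells (25 and 100). Leaving out 1 library gave 12 to 97 and 60 to 746 against mesenchymal cells, and 2 to 37 and 8 to 161 against endothelial cells, with 42, 129, 27 and 41 without E17.5 version 2.

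The share of macrophages at E17.5 was 1.86% in version 1 and 5.72% in version 2 with Csf1r in place of C1q, and in version 2 4.76% of barcodes with 500 genes and 5.10% without haemoglobin-rich barcodes. With all UMIs, cells with G2/M genes were 73.7% and 70.9% at E12.5 (version 1, version 2), 55.2% at E14.5 version 2 and 59.3% at E17.5 version 2. At 3 UMIs the version 2 shares were 30.0%, 27.3% and 22.8%, and after thinning to 1000 UMIs 29.1%, 23.4% and 22.6%, with 37.5% at E14.5 batch 1 and 0 at E17.5 version 1. Cells with a UMI of H2-Aa, H2-Ab1, H2-Eb1 or Cd74 in version 2 were 29.3%, 30.5% and 53.6% with all UMIs and 6.69%, 13.6% and 20% after thinning to 1000, with 10.5% at E12.5 version 1. Without Cd74, 85.4% of E17.5 version 2 macrophages had no such UMI. Depth limits E17.5 version 1 most, with 12 cells and 47672 UMIs.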
